A study of Bos taurus with 6 samples.

Results

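The genes described here are 2 ligands of the bone morphogenetic protein (BMP) family (BMP2 and BMP4), their receptors BMPR1A and BMPR2, the antagonist GREM1, the inhibitory SMAD6, and the target genes ID1, ID2, ID3 and ID4. They were chosen by gene symbol in the annotation of the array, which gave 12 probe sets of 24016 tested. These 12 cover 7 of the 10 genes, among 9155 genes with a symbol on the array. GREM1, SMAD6 and ID4 had no annotated probe set and were not analysed here.

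BMPs are secreted ligands of the TGF-β superfamily. They bind type I and type II receptor kinases, which activate SMAD proteins that enter the nucleus, and the ID genes are among the best known genes switched on in this way. ID proteins carry a helix-loop-helix without a DNA-binding region and hold E proteins in pairs that cannot bind DNA. In cartilage, BMPs drive the formation and maturation of chondrocytes, and secreted antagonists such as gremlin and noggin limit their reach.

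Chondrocytes from the articular cartilage of bovine metacarpal-phalangeal joints were grown in micromass, a high-density culture in which the cells go on making cartilage matrix, and their RNA was hybridized to Affymetrix Bovine Genome arrays. The treated cultures were held for 8 hours with TGF-β1 at 5 ng/ml and the untreated cultures with vehicle, with 3 arrays in each group, numbered 1 to 3. Cells from 3 cows were used in both conditions, and arrays with the same number were taken as a pair. Values are log2 signals from which the median of the probe set across the 6 arrays was subtracted, so that differences between arrays are kept but the level of a gene is lost, and neither the absence of a gene nor the identity of the cells can be read from them.

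Both arrays of replicate 3 stood apart from the others. The median of 34 probe sets of cell cycle genes was -0.27, -0.08 and 2.10 on the TGF-β arrays of replicates 1, 2 and 3, against -0.06, -0.06 and 2.39 on the untreated arrays. Hybridization spike-ins were bright on the TGF-β array of replicate 2, where their median was 1.53, against -0.17 to 0.06 on the other 5 arrays. The treatment itself was visible in all 3 pairs. TGFBI, the gene of an adhesion protein of the matrix, had 1.95, 1.20 and 1.81 on the TGF-β arrays, against -2.15, -1.20 and -1.85 on the untreated arrays. PTHLH, which encodes parathyroid hormone-related protein, rose by 2.04 log2 units and PMEPA1, whose product restrains TGF-β signaling, by 2.32, while 2 of 4 probe sets of the lubricin gene PRG4 rose. Among probe sets of markers of other cells, 0 of 11 endothelial and 0 of 11 leukocyte probe sets passed limma's paired test, while 1 of 12 did for synovial fibroblasts (DPT, higher with TGF-β) and 1 of 7 for osteoblasts (IBSP, lower). For chondrocytes, 2 of 25 marker probe sets, both of COMP, were higher and 5, of COL11A1 and CNMD, were lower. Of all probe sets tested, 2.44% passed this test on the higher side and 3.46% on the lower side. Of the 25 chondrocyte probe sets, 13 were lower and 2 higher in all 3 pairs, against 20.0% and 20.6% of all probe sets. In such bulk RNA, fewer cells of a type and less RNA per cell cannot be told apart.

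ID3 was the only gene of the set that passed the test, and it fell. A probe set was called where limma's paired fit gave a p, adjusted by Benjamini-Hochberg over all probe sets, below 0.05. Of the 12 probe sets, 0 were called higher, 1 was called lower and 11 were not called. Of all probe sets tested, 2.44% were called higher, 3.46% lower and 5.9% in either direction, so a single call among 12 lies close to the background. The median change over the 12 probe sets was 0.19 log2 units, against 0.01 over all probe sets. In none of the 12 did the TGF-β arrays lie apart from the untreated arrays, which they did in 6.11% of all probe sets on the higher side and 4.91% on the lower side. BMP2 was the only one higher in all 3 pairs (20.6% of all probe sets were), and ID3 and 1 probe set of BMPR1A were lower in all 3 pairs (20.0% of all).

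**Figure D1:**
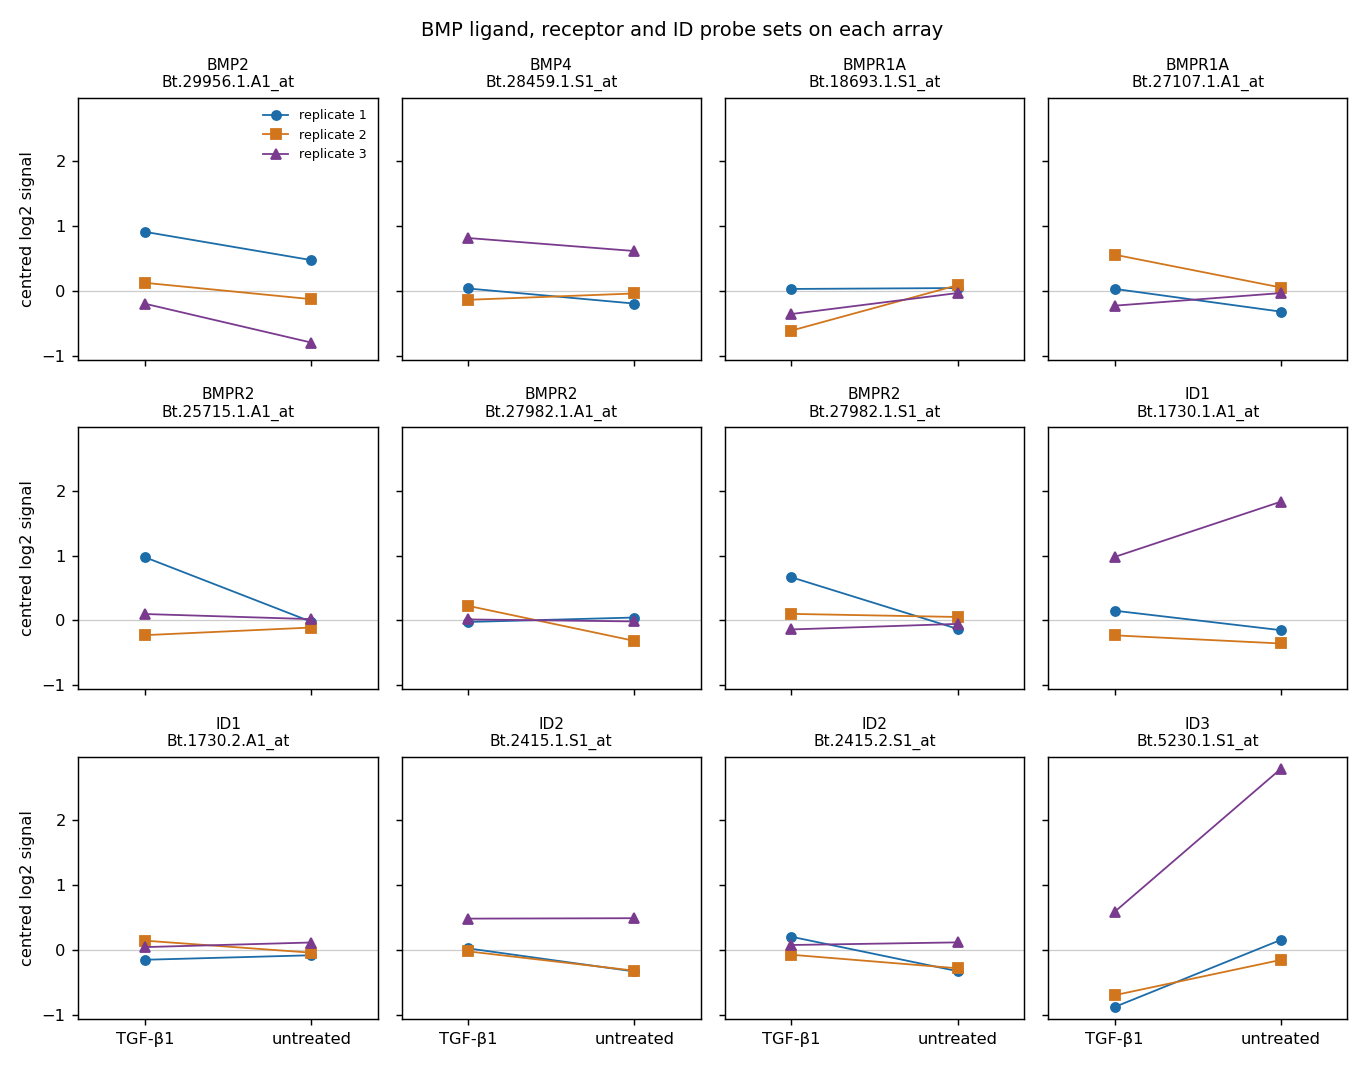
Centred log2 signal (vertical axis) of the 12 probe sets of BMP2, BMP4, BMPR1A, BMPR2, ID1, ID2 and ID3 on the TGF-β1 and untreated arrays, with the 2 arrays of a replicate joined by a line and the probe sets of a gene in the order of the text. The ID3 lines all run lower at TGF-β1 and the BMP2 lines all run higher there, and the replicate 3 arrays of ID3 and of the first ID1 probe set lie above the other arrays of the same treatment.

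ID3 encodes one of the ID proteins. Its probe set had -0.88, -0.70 and 0.59 on the TGF-β arrays of replicates 1, 2 and 3, against 0.15, -0.15 and 2.80 on the untreated arrays. Within each replicate the TGF-β array was the lower one, yet the groups overlapped, because the TGF-β array of replicate 3 lay above the untreated arrays of replicates 1 and 2. The differences were -1.04, -0.55 and -2.21 log2 units (SD 0.855), and the pair with the highest untreated value also had the largest decrease. The untreated value is part of each difference, so this relation is partly built in. The fitted log2 fold change was -1.26 (SE 0.258, 95% interval -1.85 to -0.68, n = 3 pairs), or a level 2.40-fold lower in treated cultures (adjusted p = 0.0254, limma). The fit draws the variance of each probe set toward a prior shared by all of them. This prior had an SD of 0.144 and 6.72 degrees of freedom, against 2 for the residuals. The SE and interval of ID3 are therefore narrower than its 3 differences alone would give, and the call rests on them. By size it was the 49th largest decrease of the 24016 probe sets. Without replicate 3 it was -0.79 (adjusted p = 0.0108, limma), and without replicate 1 or 2 it was -1.38 and -1.62 (adjusted p = 0.0295 and 0.0433). The call was lost with a robust prior in limma (adjusted p = 0.0538) and on the groups alone (adjusted p = 0.988). It was also lost with the unequal-variance test of the methods, here with adjusted p. A single probe set represents ID3 on this array, so that no other measurement of it could be compared.

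The other ID genes did not pass the test, and their replicates did not move together. ID1, the member most widely used as a readout of BMP signaling, has 2 probe sets. The first had 0.15, -0.23 and 0.98 on the TGF-β arrays, against -0.15, -0.36 and 1.83 on the untreated arrays. In replicates 1 and 2 it was slightly higher with TGF-β, by 0.30 and 0.13, and in replicate 3 it was lower, by -0.85. Its log2 fold change was -0.14 (SE 0.201, 95% interval -0.60 to 0.31, n = 3 pairs; adjusted p = 0.780, limma), and 0.21 without replicate 3. The second had -0.15, 0.14 and 0.04 on the TGF-β arrays, against -0.08, -0.04 and 0.11 on the untreated arrays, with a log2 fold change of 0.01 (95% interval -0.24 to 0.27). It spanned 0.295 log2 units over the 6 arrays, where the first spanned 2.19 and the median probe set of the array 0.565. The probe sets of ID1 therefore disagreed on how far the gene varied between cultures, and which of them follows the transcript was not tested.

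ID2, whose product also holds E proteins, was not called on either of its probe sets. The first had 0.02, -0.02 and 0.48 on the TGF-β arrays, against -0.33, -0.32 and 0.49 on the untreated arrays. The second had 0.20, -0.08 and 0.08 on the TGF-β arrays, against -0.33, -0.28 and 0.12 on the untreated arrays. Both were higher with TGF-β in replicates 1 and 2 and close to level in replicate 3. The log2 fold changes were 0.22 (SE 0.117, 95% interval -0.05 to 0.48; adjusted p = 0.366, limma) and 0.23 (SE 0.130, 95% interval -0.06 to 0.53; adjusted p = 0.383, limma). Without replicate 1 they were 0.15 and 0.084. Set against ID2 pair by pair, the change of ID3 minus that of ID2 was -1.39, -0.84 and -2.20 log2 units for the first probe set and -1.57, -0.75 and -2.17 for the second. Against the first probe set of ID1 it was -1.34, -0.67 and -1.36, and against the second -0.97, -0.73 and -2.14. The change of ID3 was thus below those of ID1 and ID2 in each of the 3 pairs. This is a description with no test, since ID3 was singled out by its own change and 3 pairs cannot give an exact two-sided p below 0.25.

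**Figure D2:**
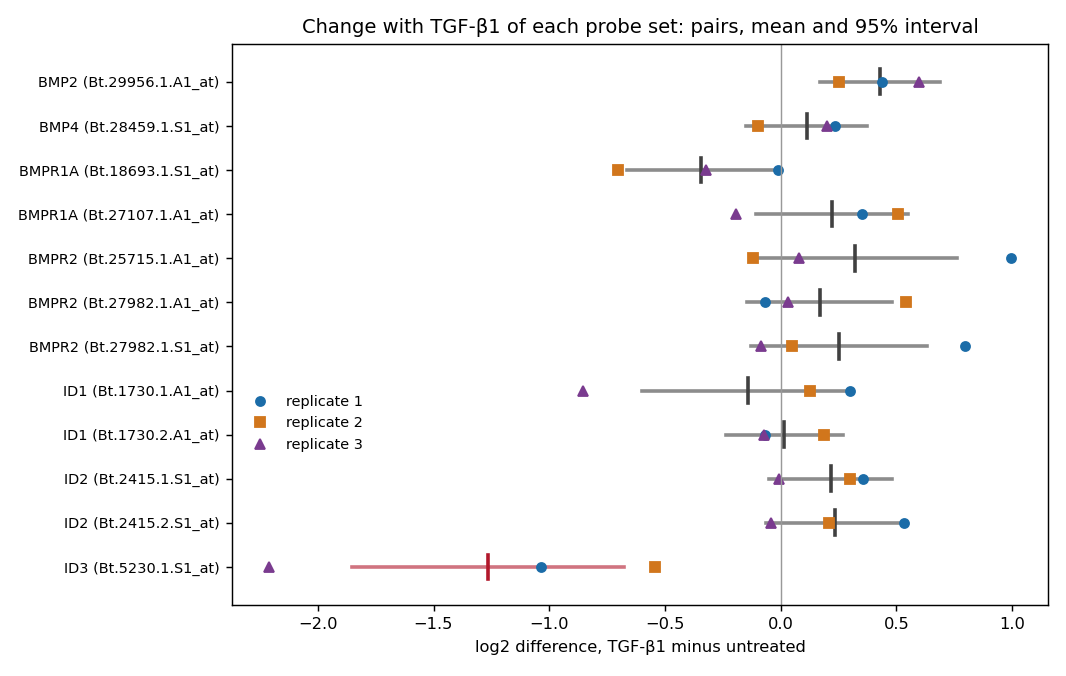
Log2 difference, TGF-β1 minus untreated (horizontal axis), of each of the 12 probe sets in the 3 replicates (symbols), with the fitted mean (vertical tick) and its 95% interval from limma's paired fit (bar, red where called). The ID3 interval runs from -1.85 to -0.68, and that of BMP2 from 0.17 to 0.69.

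ID3 and the first probe sets of ID1 and ID2 were highest in replicate 3, with TGF-β as without it. ID3 in replicate 3 lay above the mean of replicates 1 and 2 by 1.38 log2 units on the TGF-β array and by 2.80 on the untreated array. For the first probe set of ID1 these distances were 1.02 with TGF-β and 2.09 in the untreated culture, and for the first probe set of ID2 they were 0.48 and 0.82. The second probe sets of ID1 (0.05 and 0.18) and ID2 (0.01 and 0.42) showed less of it. Cell cycle genes were high on the same arrays, with a median distance over their 34 probe sets of 2.59 with TGF-β and 2.47 in the untreated cultures. In replicate 3 the cell cycle median was 2.10 with TGF-β and 2.39 untreated. In replicate 1 it was -0.27 with TGF-β and -0.06 untreated, and in replicate 2 it was nearly level, at -0.08 and -0.06. Of the 34 probe sets, 0 were called higher and 3 lower in the paired fit (3.46% of all probe sets were called lower), 18 were lower in all 3 pairs (20.0% of all were), and their median change was -0.13 log2 units. The part of these genes in the ID3 result was not tested.

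**Figure D3:**
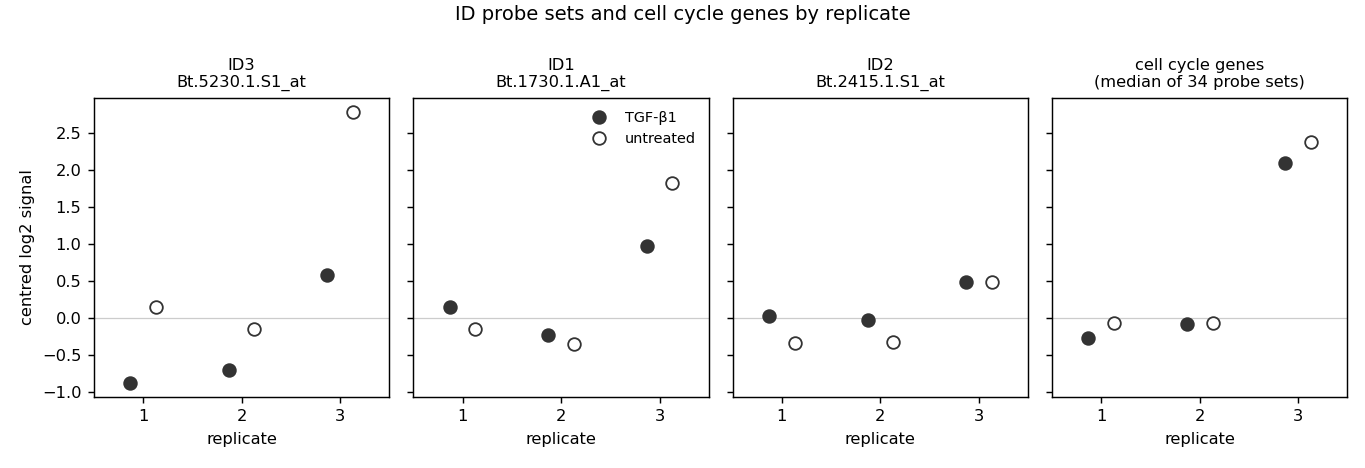
Centred log2 signal (vertical axis) of ID3, of the first probe sets of ID1 and ID2, and of the median of 34 cell cycle probe sets, by replicate (horizontal axis), with TGF-β1 arrays filled and untreated arrays open. All 4 panels are highest in replicate 3, and the ID3 panel alone has the filled symbol below the open one by more than 0.5 in every replicate.

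RAC3, which encodes a small GTPase, had the pattern most like that of ID3 (Pearson r = 0.998 over the 6 arrays, among 13291 probe sets with a gene symbol). CYP2U1, which encodes a cytochrome P450 (r = 0.998), and STARD5, which encodes a lipid-binding protein (r = 0.994), followed. All 3 were highest in the untreated culture of replicate 3, at 0.52, 0.88 and 0.86, and this array weighs most in the correlations. Their own changes with TGF-β were -0.26, -0.37 and -0.39 log2 units and were not called.

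Of the ligands, BMP2, a strong inducer of cartilage and bone, was higher with TGF-β in each pair but did not pass the adjusted threshold. Its probe set had 0.91, 0.13 and -0.20 on the TGF-β arrays, against 0.48, -0.13 and -0.80 on the untreated arrays. The 3 differences of 0.44, 0.25 and 0.60 (SD 0.174) were close to one another, while the replicates lay further apart than the treatments, so that the groups overlapped. The log2 fold change was 0.43 (SE 0.114, 95% interval 0.17 to 0.69, n = 3 pairs), or 1.35-fold, with an adjusted p of 0.0670 in limma's paired fit and 0.0546 to 0.252 in the alternatives that kept the pairing. BMP4, a close relative of BMP2, had 0.04, -0.14 and 0.82 on the TGF-β arrays, against -0.19, -0.04 and 0.62 on the untreated arrays. It was higher in 2 of 3 pairs, and its fitted change was 0.11 log2 units (SE 0.115, 95% interval -0.15 to 0.37; adjusted p = 0.680, limma). Replicate 3 lay on opposite sides for the 2 ligands. BMP2 in replicate 3 lay below the mean of replicates 1 and 2, at -0.72 with TGF-β and -0.97 untreated, and BMP4 lay above it, at 0.87 and 0.73.

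The receptor genes gave no call, and the probe sets of a gene differed from one another. BMPR1A, a type I receptor for BMP2 and BMP4, has 2 probe sets with changes of opposite sign. The first had 0.03, -0.61 and -0.36 on the TGF-β arrays, against 0.05, 0.09 and -0.03 on the untreated arrays, which gave a change of -0.35 log2 units (SE 0.141, 95% interval -0.67 to -0.03; adjusted p = 0.214, limma). The second had 0.03, 0.56 and -0.23 on the TGF-β arrays, against -0.32, 0.05 and -0.03 on the untreated arrays, which gave 0.22 log2 units (SE 0.145, 95% interval -0.11 to 0.55; adjusted p = 0.468, limma). They differed most on the TGF-β array of replicate 2, the one with bright spike-ins. Without replicate 2 their changes were -0.17 and 0.079 log2 units, nearer to each other and still of opposite sign. Whether the bright spike-ins had a part in this difference was not tested.

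BMPR2, the type II receptor, has 3 probe sets. The second and the third were designed on the same source sequence and did not vary together (Pearson r = -0.043 over the 6 arrays). Which of them follows the transcript was not tested. The first had 0.98, -0.23 and 0.10 on the TGF-β arrays, against -0.02, -0.11 and 0.02 on the untreated arrays. The second had -0.02, 0.23 and 0.02 on the TGF-β arrays, against 0.04, -0.32 and -0.02 on the untreated arrays, and the third had 0.67, 0.10 and -0.14 on the TGF-β arrays, against -0.13, 0.05 and -0.05 on the untreated arrays. The first and the third stood high on the TGF-β array of replicate 1 alone. The log2 fold changes were 0.32, 0.17 and 0.25 (SE 0.194, 0.137 and 0.168), with adjusted p = 0.429, 0.586 and 0.472 in limma's paired fit, and without replicate 1 those of the first and the third were -0.020 and -0.019.

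Other genes of the BMP pathway were called about as often as the array as a whole. Of 65 genes on 6 lists, 31 had a probe set. Of these, 1 was called higher, 2 were called lower and 28 were not called, where 8431 of all 9155 genes were not called. Over their 45 probe sets, 1 was called higher and 2 lower, close to the 2.44% and 3.46% of all probe sets. The median change was 0.10 log2 units. None of the 6 further ligand genes measured passed. BMP5 came nearest, with -0.23, -0.03 and -0.20 on the TGF-β arrays, all below the 0.27, 0.50 and 0.03 of the untreated arrays, and a fitted change of -0.42 log2 units (SE 0.113; adjusted p = 0.0715, limma). Of 6 receptors and co-receptors, 5 SMADs and intracellular inhibitors and 3 E proteins, 0 were called. The smallest p in each list belonged to the co-receptor gene ENG (-0.25, adjusted p = 0.283), to SMAD4, which encodes the partner shared by BMP and TGF-β SMADs (0.22, adjusted p = 0.407), and to the E protein gene TCF12 (-0.26, adjusted p = 0.204).

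Among 5 secreted antagonists and modulators, FSTL3 rose. It encodes a follistatin-like protein that binds activins and related ligands, and had 0.42, 0.13 and 1.43 on the TGF-β arrays, against -0.76, -1.35 and -0.13 on the untreated arrays. The groups did not overlap, and the log2 fold change was 1.41 (SE 0.117, n = 3 pairs), or 2.66-fold, with an adjusted p of 0.000603 in limma's paired fit. BMPER, whose product binds BMPs outside the cell, had fitted changes of opposite sign on its 2 probe sets, and only the lower one was called. One had -0.24, 0.36 and -1.27 on the TGF-β arrays, against 0.24, 0.73 and -0.60 on the untreated arrays, and fell by 0.51 log2 units (adjusted p = 0.0333, limma). The other had a log2 fold change of 0.25 (adjusted p = 0.328), and the mean of both had -0.13 (adjusted p = 0.525). The call of the lower probe set was lost when any 1 of the replicates was left out (adjusted p = 0.0790 to 0.135).

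Among 6 further BMP target genes, DLX5 fell. It encodes a homeobox factor of skeletal development, and 1 of its 2 probe sets had -0.44, -0.08 and -0.22 on the TGF-β arrays, all below the 0.08, 0.55 and 0.73 of the untreated arrays. Its log2 fold change was -0.70 (SE 0.121, n = 3 pairs; adjusted p = 0.0125, limma), and that of the other probe set was -0.47 (adjusted p = 0.0561). Without replicate 2 the first of these was no longer called (adjusted p = 0.0645). The remaining targets with a probe set, MSX1, HEY1, TBX2, DLX3 and ALPL, were not called.

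**Figure D4:**
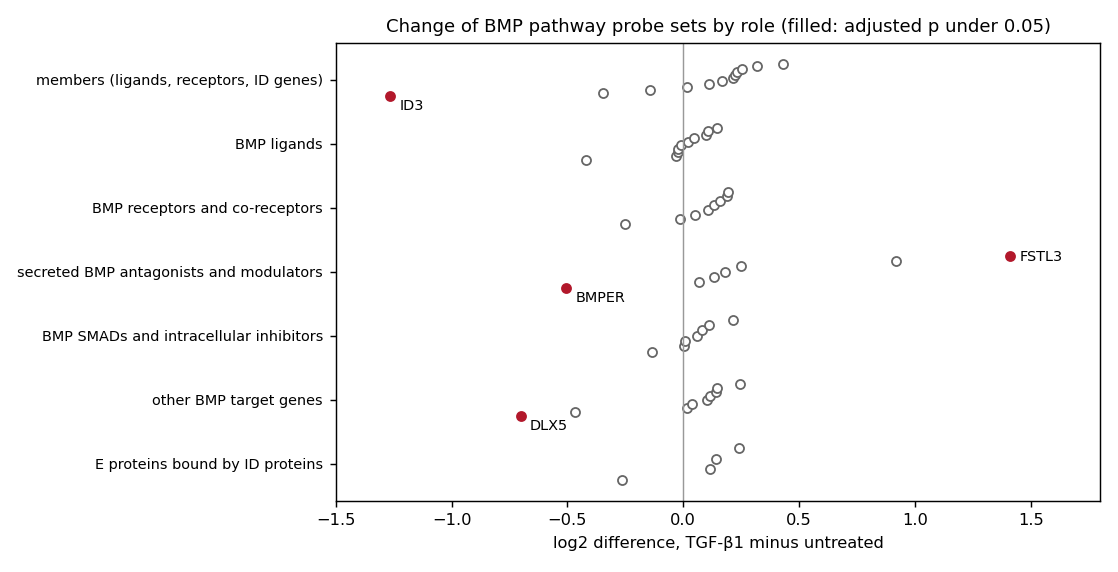
Log2 difference, TGF-β1 minus untreated (horizontal axis), of the 12 probe sets of the ligands, receptors and ID genes and of 45 probe sets of other BMP pathway genes, grouped by role, with called points filled. ID3 at -1.26, DLX5 at -0.70 and BMPER at -0.51 are the filled points below 0, and FSTL3 at 1.41 is the filled point above it.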

How the data were processed

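The authors loaded the array files in GeneSpring and made log2 signals by Robust Multichip Average (RMA), a method that corrects background, applies quantile normalization and combines the probes of a set. The deposited log2 values are also centred on each probe set's median over the 6 arrays (largest absolute median 5e-07). Scanner files were not used here, so background correction and a filter on dim probe sets could not be varied. The number of arrays, 3 per group, limits the precision. Any 2 arrays shared at most 56 identical values.

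Of 24128 probe sets, 112 array controls were left out. The platform annotation gave 1 symbol to 13292 probe sets, several to 86 and none to 10638, and 13263 were matched to current symbols by Entrez ID. Differences are TGF-β minus untreated, tested 2-sided in limma 3.58.1 (R 4.3.3) with the replicate number as a term, default prior and Benjamini-Hochberg adjustment at 0.05 over all probe sets. Same-numbered arrays deviated together from their group means (r = 0.740, 0.694 and 0.845 over probe sets, against -0.683 to 0.185 otherwise). The pairing rests on the cultures of 3 cows in the methods, because the sample names carry a number but no animal. The p-values of the paired fit set the mean TGF-β minus untreated difference against its spread over these pairs. The variance used for this is drawn toward the prior. The spread of levels between cultures is taken up by the replicate term and stays in the fit on the groups alone. The fit was tested on simulated data. Alternatives were the fit on the groups alone, leaving out each replicate, quantile or median scaling, a robust prior, gene means, named probe sets only and the methods' unequal-variance test. The unequal-variance test was adjusted here at the same 0.05. For their gene list the authors took a p under 0.05 from that test with a minimum fold change, and state no adjustment. The members and lists were chosen with earlier results of these data known. Named were all members, every called gene of the pathway lists, the gene with the smallest p in a list without a call, 4 genes that check the treatment, and the 3 probe sets most like ID3. MSX1, HEY1, TBX2, DLX3 and ALPL were named beyond this rule, as were the called genes of the marker lists (DPT, IBSP, COMP, COL11A1 and CNMD), after their values were seen. Neither sequences nor genome coordinates were used.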

Additional observations from a re-analysis of the deposited data

How the results depend on the processing

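Precision is limited by 3 pairs, and signal over background is unknown in centred values. No alternative called a member higher. Counts of members and pathway probe sets are small, so that 1 call moves them by more than 1.5 times. The lower call among the members, ID3, was lost (0 called) on the groups alone with no replicate block, with the robust prior and with the unequal-variance test of the methods, and kept in the other alternatives, with -1.62 to -0.79 over the 3 that left out a replicate. On the groups alone and with the unequal-variance test, 0 probe sets were called in either direction, in the pathway lists or over all. Unadjusted p in these tests was under 0.05 for 1377 and 1032 of the 24016 probe sets and for 0 of the 12 members. Both shares over all probe sets lie near the 0.05 that the threshold itself allows, and 0 of 12 is close to them. Without the block, ID3 had an unchanged -1.26 (adjusted p = 0.988, limma). Leaving out a replicate gave 1 to 2 higher and 0 to 1 lower calls among the pathway lists, and averaging the probe sets of a gene left 1 lower call.

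Of all probe sets, 585 were higher and 832 lower in the paired fit, against 272 to 590 higher and 267 to 747 lower with a replicate left out, 377 and 443 after quantile normalization, 205 and 419 of genes after averaging, and 277 and 505 among probe sets with 1 symbol. Of 210 values for 21 named probe sets under 10 alternatives, 186 kept their direction and side of the threshold, 14 lost a call, 1 gained it and 9 changed sign, the last only in probe sets that were not called. The first probe set of ID1 had -0.36 to 0.21 with a replicate left out and 0.082 after quantile normalization, and the second had -0.070 to 0.058 and, as a gene mean, -0.064. With a replicate left out, the probe sets of BMPR2 had -0.020 to 0.54, -0.019 to 0.29 and -0.019 to 0.42. The second probe set of BMPR1A had -0.063 and that of BMPER without a call -0.13 as gene means. The cause of these shifts was not tested.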

Other observations

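2 further genes outside the rule for named genes were picked after their values were seen. ACVR1, a type I receptor for BMPs, was low in replicate 3 on both of its probe sets. One had 0.79, -0.18 and -0.89 on the TGF-β arrays of replicates 1, 2 and 3, against 0.69, 0.18 and -1.29 on the untreated arrays, and the other had 0.35, 0.09 and -0.88 with TGF-β, against 0.24, -0.09 and -1.16 untreated. Their fitted changes with TGF-β were 0.05 and 0.19 log2 units and were not called. FST, which encodes follistatin, had 1.71, 0.03 and -0.03 on the TGF-β arrays, against -0.51, -0.58 and 0.05 on the untreated arrays, so that it was higher in replicates 1 and 2 and close to level in replicate 3 (log2 fold change 0.92, SE 0.341, adjusted p = 0.176, limma).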
